A study of Homo sapiens with 12 samples.

Results

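A block of 278 expressed genes on the long arm of human chromosome 14 is described here, chosen because many genes of this stretch were lower in BEAS-2B cells kept with kava. The block holds every gene whose start lies between positions 34874343 and 102056443 of chromosome 14 (build hg38) and whose mean level over the 3 vehicle and 3 kava libraries was at least 1 TPM (a read share scaled for transcript length and library size), apart from 24 genes of the same window that were set aside by name. These 278 genes are among 13866 that reached that level, of 78932 in the table. A further 426 window genes stayed under the minimum, so that 728 window genes were measured in all. Because the stretch was picked from the kava comparison, its values in that comparison are a description: no p-value of a member is given there, and counts by a test over all genes stand only beside the share of all genes.

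BEAS-2B is an immortalised line derived from human bronchial epithelium. Poly(A)-selected RNA was sequenced from 12 samples in 4 groups of 3. In the vehicle group, cells had received 0.25 µM K2Cr2O7, a source of hexavalent chromium, and 0.05% DMSO for 20 weeks. The kava group received the same chromate dose for the same 20 weeks and also 25 µg/ml kava (a preparation from Piper methysticum); whether its solvent was DMSO is not stated in the labels used here. For the other 2 groups, cells carried with vehicle and chromate were transfected with 100 nM non-targeting control siRNA or 100 nM of an siRNA pool against SNRPA1, which encodes a core protein of the U2 snRNP, and were harvested after 48 hours. All 4 groups therefore shared chromate exposure and the cell line, the labels give 1 wild-type line with no clones named, and no group without chromate is analysed here. The labels do not say whether replicates came from separate cultures, so p-values measure only the spread between these libraries, which may be technical.

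Human chromosome 14 is acrocentric: its protein-coding genes lie on the long arm. Neighbouring genes of this arm have unrelated jobs, among them the NF-κB inhibitor IκBα, the spliceosome assembly factor Gemin2, the integrin activator kindlin-2, glycogen phosphorylase and the deiodinase that activates thyroid hormone. What the members share by choice is position and an expression level, not a pathway.

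Promoter windows are shown for the members at both extremes, since their starts differ widely in base composition and motifs. The 8 windows below belong to the 6 members with the most negative difference in log2(TPM + 1) with kava and the 2 with the most positive, a scale that shrinks differences of low genes, among named members of at least 5 TPM with a RefSeq promoter. Each runs from 250 bases before to 50 bases after the RefSeq start (GRCh38.p14) and is written 5′ to 3′ on the gene's strand. Capitals mark matches, on either strand, to 6 motifs: the GC box GGGCGG, the CCAAT box CCAAT, the TATA box TATAAA, the cAMP response element core TGACGT, the E-box CACGTG and the ETS core CCGGAA.
BDKRB1, chr14:96255960-96256259, plus strand: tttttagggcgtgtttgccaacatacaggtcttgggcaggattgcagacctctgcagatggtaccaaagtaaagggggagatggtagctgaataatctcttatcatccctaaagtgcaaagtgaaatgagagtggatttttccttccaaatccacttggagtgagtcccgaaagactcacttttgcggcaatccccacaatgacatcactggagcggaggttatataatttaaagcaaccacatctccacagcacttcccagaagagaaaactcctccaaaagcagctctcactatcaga
PYGL, chr14:50944434-50944733, minus strand: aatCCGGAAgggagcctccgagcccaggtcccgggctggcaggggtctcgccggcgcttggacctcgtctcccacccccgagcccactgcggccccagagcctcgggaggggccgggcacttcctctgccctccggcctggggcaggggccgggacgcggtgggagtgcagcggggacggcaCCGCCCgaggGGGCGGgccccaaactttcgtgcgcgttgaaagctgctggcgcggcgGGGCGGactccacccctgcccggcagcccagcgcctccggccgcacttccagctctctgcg
GEMIN2, chr14:39114073-39114372, plus strand: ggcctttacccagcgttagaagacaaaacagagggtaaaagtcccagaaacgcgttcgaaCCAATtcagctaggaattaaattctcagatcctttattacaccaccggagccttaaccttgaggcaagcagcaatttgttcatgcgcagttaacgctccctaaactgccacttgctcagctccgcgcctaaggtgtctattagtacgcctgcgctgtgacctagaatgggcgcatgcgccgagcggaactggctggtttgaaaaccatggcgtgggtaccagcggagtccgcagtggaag
FERMT2, chr14:52951001-52951300, minus strand: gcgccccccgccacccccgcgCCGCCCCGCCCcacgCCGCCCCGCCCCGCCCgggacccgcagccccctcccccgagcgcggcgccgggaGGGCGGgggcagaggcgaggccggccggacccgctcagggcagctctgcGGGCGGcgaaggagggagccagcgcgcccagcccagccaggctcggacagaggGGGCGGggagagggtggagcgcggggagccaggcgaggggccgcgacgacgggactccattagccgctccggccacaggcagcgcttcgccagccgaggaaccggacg
VIPAS39, chr14:77457552-77457851, minus strand: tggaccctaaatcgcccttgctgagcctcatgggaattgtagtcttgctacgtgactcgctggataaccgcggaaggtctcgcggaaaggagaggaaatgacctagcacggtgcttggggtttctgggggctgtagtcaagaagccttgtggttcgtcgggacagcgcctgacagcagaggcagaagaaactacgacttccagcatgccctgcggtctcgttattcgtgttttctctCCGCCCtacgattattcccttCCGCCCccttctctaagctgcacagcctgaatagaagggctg
ATG14, chr14:55411781-55412080, minus strand: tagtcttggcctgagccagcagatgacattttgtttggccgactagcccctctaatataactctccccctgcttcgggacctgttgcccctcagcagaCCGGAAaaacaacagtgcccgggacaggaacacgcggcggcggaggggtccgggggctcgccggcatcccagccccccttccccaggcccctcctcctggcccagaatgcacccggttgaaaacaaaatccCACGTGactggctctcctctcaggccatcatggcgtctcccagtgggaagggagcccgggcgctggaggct
DIO2, chr14:80211455-80211754, minus strand: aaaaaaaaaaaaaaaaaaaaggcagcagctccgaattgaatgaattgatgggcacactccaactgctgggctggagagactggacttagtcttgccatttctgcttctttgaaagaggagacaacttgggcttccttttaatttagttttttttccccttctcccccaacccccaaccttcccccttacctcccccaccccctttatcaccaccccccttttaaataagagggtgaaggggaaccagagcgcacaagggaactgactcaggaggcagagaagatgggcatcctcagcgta
BMP4, chr14:53955001-53955300, minus strand: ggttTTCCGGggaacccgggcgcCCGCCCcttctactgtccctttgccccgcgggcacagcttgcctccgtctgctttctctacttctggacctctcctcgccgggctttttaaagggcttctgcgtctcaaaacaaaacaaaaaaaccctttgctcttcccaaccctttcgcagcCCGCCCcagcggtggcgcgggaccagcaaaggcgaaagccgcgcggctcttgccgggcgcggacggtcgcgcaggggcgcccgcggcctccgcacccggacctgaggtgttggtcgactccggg

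The FERMT2 window holds 8 GC boxes, some in overlapping runs, and is 82.0% G and C. In the PYGL window are 3 GC boxes and an ETS core, whereas the BDKRB1 window, at 45.0% G and C, and the DIO2 window hold no match to the 6 motifs. GEMIN2 has 1 CCAAT box, VIPAS39 has 2 GC boxes, ATG14 has an ETS core and an E-box, and BMP4 has 2 GC boxes and an ETS core. A GC box occurs in 68.8% of the 218 members with a RefSeq window and in 71.2% of the 10224 such windows over all genes tested. The same shares are 36.2% and 37.0% for the CCAAT box, 2.75% and 5.44% for the TATA box, and 13.3% and 11.9% for the cAMP response element core. They are 7.34% and 10.2% for the E-box, and 31.7% and 31.0% for the ETS core. Only 218 of the 278 members had a window, under 80% of them, so these shares describe the matched genes and were not compared by a test. A match is a run of letters, not a binding site.

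The vehicle and kava libraries were deposited as TPM, which sum to 1000000 in each library and keep no depth, so how deeply they were sequenced is unknown. Counts were deposited for the siRNA libraries, with totals of 55003534 to 65385258 assigned to genes. Among the siRNA libraries, control siRNA replicate 1 stood apart: its median absolute log2 difference was 0.317 and 0.267 from the other 2 control libraries, against 0.0939 between those 2. SNRPA1 itself, the targeted gene, was at 67.6, 58.9 and 60.2 CPM (counts scaled to a common library total) with control siRNA and at 21.4, 21.0 and 23.8 CPM with SNRPA1 siRNA (log2 fold change -1.50 ± 0.0981, SE; edgeR adjusted p = 0.00495). With kava its level was 127 TPM against 151 TPM with vehicle. Of 10 epithelial markers, 6 reached a mean of 1 TPM over the vehicle and kava libraries (KRT18, EPCAM, KRT17, KRT7, KRT8 and KRT19). CDH1 and KRT5 were at means of 0.132 and 0.108 TPM, and TP63 and KRT14 were under 0.05 TPM. Single markers moved with kava: KRT19 was at a mean of 23.5 TPM with vehicle and 0.705 TPM with kava, KRT7 at 192 and 406 TPM, and the fibroblast gene COL1A2 at 0.101 and 8.54 TPM. The 7 fibroblast markers, 4 of which reached 1 TPM, were led by THY1 at a mean of 392 TPM and summed to 479 to 513 TPM in the vehicle and 502 to 529 TPM in the kava libraries. Markers of differentiated airway cells, blood and endothelium reached a mean of 1 TPM over the same libraries in 0 of 6, 0 of 5 and 0 of 4 genes. The endothelial sum was 1.22 to 1.51 TPM with vehicle and 0.364 to 0.429 TPM with kava. Most of it was CDH5, at group means of 1.21 and 0.270 TPM. Any part of these differences in the member values was not tested.

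With kava, most members were lower, by proportions that varied among them. The median member was at 0.766 of its vehicle level, a difference of -0.35 in log2(TPM + 1) (middle 50% of members -0.46 to -0.21), while the median of all 13866 genes was -0.014 and that of genes on other chromosomes was -0.0097. In 255 members (91.7%) the kava mean of log2(TPM + 1) was below the vehicle mean, against 52.9% of all genes tested. All 3 kava values lay under all 3 vehicle values for 209 members (75.2%), against 24.6% of all genes tested, and all 3 lay above for 11 members (3.96%), against 22.6%. By limma with Benjamini-Hochberg adjustment over all genes, 186 members passed as lower, where 15.6% of all genes did, and 7 as higher, where 16.3% did. The 7 became 3, 2, 4, 5, 3 and 4 when vehicle replicates 1, 2 and 3 and kava replicates 1, 2 and 3 were left out in turn. The stretch was chosen on this contrast, so these counts describe it and support nothing further. In bulk RNA, a smaller share of some cells and less RNA per cell cannot be told apart, and TPM are shares of each library.

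The 3 kava libraries gave nearly the same picture. Relative to the vehicle mean, the median member stood at -0.36, -0.34 and -0.34 in log2(TPM + 1) in kava replicates 1 to 3; relative to the mean of the other vehicle libraries, it stood at 0.012, -0.015 and 0.017 in the vehicle replicates. For all other genes the kava medians were -0.017, -0.00066 and -0.0057. Every kava library therefore sat below every vehicle library for the median member. Members below those means made up 90.3%, 89.2% and 88.5% of the 278 in the kava libraries, and 45.3%, 54.3% and 45.3% in the vehicle libraries. Summed over members without the 3 RN7SL genes, the level was 10682, 10491 and 10748 TPM with vehicle and 7988.9, 8142.6 and 8317.2 TPM with kava. With RN7SL genes the sums overlapped, at 14050, 16610 and 15720 TPM against 13860, 11130 and 18230 TPM.

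**Figure D1:**
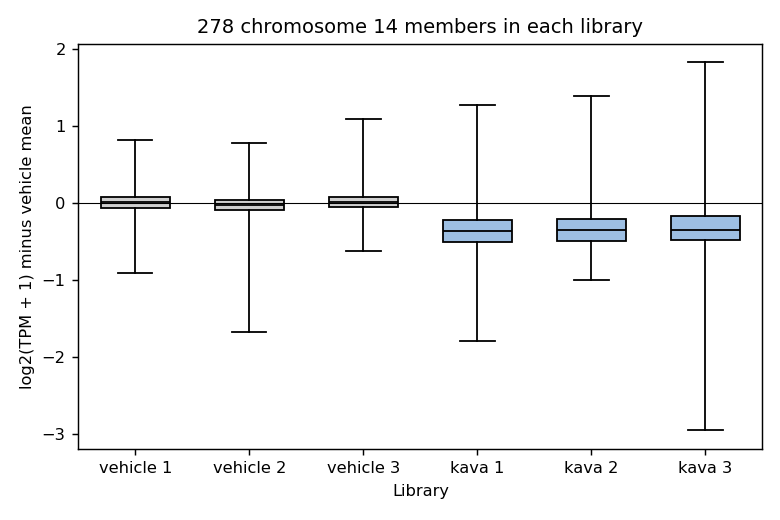
Difference of each member's log2(TPM + 1) from the mean of the vehicle libraries, leaving out the library itself (y axis), in the 3 vehicle and 3 kava libraries (x axis). Boxes span the middle 50% of the 278 members, lines mark medians and whiskers reach the lowest and highest member. The kava medians lie at -0.36, -0.34 and -0.34, below the vehicle medians of 0.012, -0.015 and 0.017.

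Along the chromosome, members were lower in each 10 Mb bin of the window. Bin medians ran from -0.28 (80 to 90 Mb, 15 members) to -0.42 (100 to 110 Mb, 5 members). In the better filled bins they were -0.41 for 57 members at 50 to 60 Mb, -0.30 for 52 at 60 to 70 Mb, -0.33 for 68 at 70 to 80 Mb and -0.35 for 43 at 90 to 100 Mb. A run of 24 tested genes in order, from SIPA1L1, which regulates Rap GTPases, to ABCD4, a lysosomal transporter protein for vitamin B12, had all kava values under all vehicle values. The next longest such run in the genome held 8 genes, on chromosome 10. Over all of chromosome 14, 453 tested genes had a median of -0.28; the next lowest autosome was chromosome 18 at -0.099 and the highest was chromosome 5 at 0.21.

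**Figure D2:**
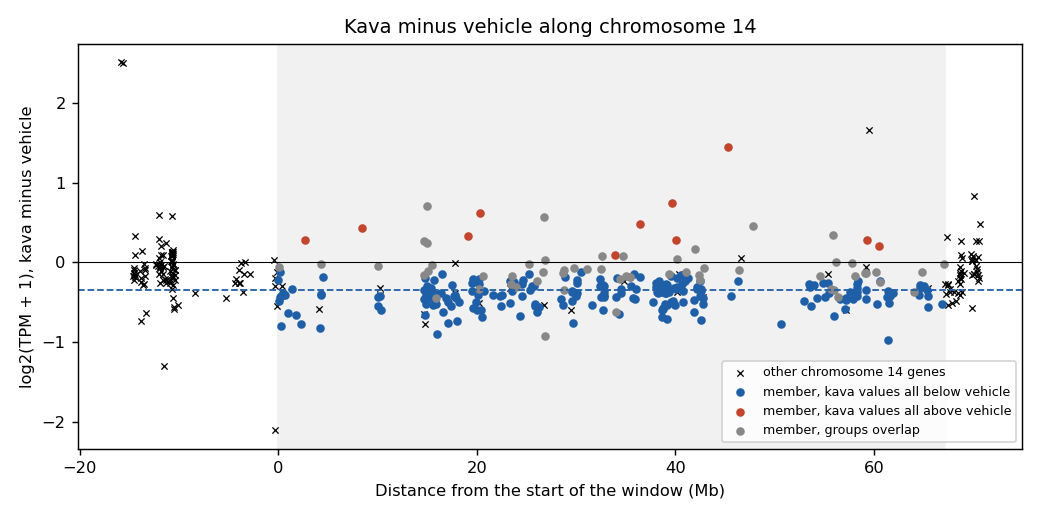
Kava minus vehicle difference in mean log2(TPM + 1) (y axis) for tested chromosome 14 genes against the distance of their start from the window's first member, in Mb (x axis). The shaded band is the window, dots are members coloured by whether the 3 kava values lie all below, all above or among the vehicle values, and crosses are other chromosome 14 genes; the dashed line is the member median of -0.35. Of the 278 members, 209 lie all below and 11 all above, scattered over the length of the window.

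Beside the window, the kava mean of log2(TPM + 1) was below the vehicle mean for 73 of 104 genes (70.2%) before it. After the window this held for 32 of 47 genes (68.1%), and over all genes tested for 52.9%. The first tested genes of the chromosome, the pseudogenes DUXAP9 and DUXAP10 before 20 Mb, were higher by 2.51 and 2.50 in log2(TPM + 1). Between 20 and 25 Mb, where 84 genes were tested, the median was -0.081. From 25 Mb to the window it was -0.23, with 13 of 18 genes (72.2%) lower without overlap, against 24.6% of all genes tested. The 3 genes just before the window were SNX6, a retromer-associated sorting nexin, at a ratio of 0.814 of vehicle, CFL2, an actin-severing cofilin, at 0.920, and BAZ1A, a chromatin remodelling subunit, at 0.682. The first members were BAZ1A-AS1, at a ratio of 0.769 (on the opposite strand to BAZ1A), the unnamed gene ENSG00000293497, at 0.940 with groups that overlapped, and SRP54, at 0.714. At the far end, the last members were WDR25 at 0.628, PPP2R5C at 0.692 and DYNC1H1, the heavy chain of cytoplasmic dynein, at 0.989. DYNC1H1 read 135, 127 and 131 TPM with vehicle and 130.5, 128 and 130.2 TPM with kava, so its groups overlapped. Beyond it, HSP90AA1 was at 0.826 and WDR20 at 0.747, whereas MOK, a kinase, was higher at 1.26. Within 2 Mb of the window's end the median was -0.27, with 19 of 26 genes (73.1%) lower without overlap. Farther on it was 0.017, with 4 of 21 (19.0%) lower, under the 24.6% of all genes. The 24 window genes set aside by name had a median of -0.35; 18 of them were lower and 1, SERPINA1, was higher, at 55.03 against 16.62 TPM.

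Highly expressed members spread less than weakly expressed ones. The 22 members of at least 100 TPM had a median of -0.39, with the middle 50% between -0.44 and -0.34, and the 93 members of 20 to 100 TPM had a median of -0.38. For the 68 members of 1 to 5 TPM the median was -0.26, with the middle 50% between -0.45 and -0.10, a scale on which the added pseudocount of 1 shrinks low genes; their median ratio was 0.770, close to the 0.763 of the members of at least 100 TPM. Kava to vehicle ratios between 0.7 and 0.9 were found for 166 members (59.7%), and for 21.3% of genes on other chromosomes. Ratios under 0.6 belonged to 20 members (7.19%) and ratios over 1.2 to 16 (5.76%), against 1.91% and 17.6% of genes on other chromosomes. By gene class, 201 of 241 protein-coding members (83.4%) were lower without overlap, against 24.6% of all genes tested, and 8 were higher. Of 19 long noncoding RNAs, 5 (26.3%) were lower and 1 higher. Of 14 pseudogenes, whose reads may be shared with a parent gene, 2 (14.3%) were lower and 2 higher. The shares lower without overlap in these last classes were near or under that of all genes. On other chromosomes that share was 17.1% for genes of 1 to 5 TPM. The kava mean of log2(TPM + 1) was below the vehicle mean for 17 of the 19 long noncoding RNAs and 9 of the 14 pseudogenes. Over all genes tested this held for 52.9%. Median ratios were 0.823 for the long noncoding RNAs and 0.878 for the pseudogenes.

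Among members of at least 5 TPM with a gene name, BDKRB1 had the lowest ratio. It encodes the bradykinin B1 receptor, a G protein-coupled receptor of inflamed tissue, and read 63.0, 62.0 and 60.4 TPM with vehicle and 33.2, 30.4 and 29.7 TPM with kava, 61.8 ± 1.29 against 31.1 ± 1.82 TPM (SD, n = 3), a ratio of 0.503. Its 3 kava values lay far below the vehicle values. PYGL, the liver-type glycogen phosphorylase that releases glucose units from glycogen, read 174, 175 and 173 TPM and then 92.4, 93.8 and 92.4 TPM, a ratio of 0.534. GEMIN2, a subunit of the SMN complex that loads Sm proteins onto spliceosomal RNAs, read 30.0, 32.7 and 31.3 TPM and then 16.1, 17.4 and 18.5 TPM, a ratio of 0.553. In both genes the libraries of a group differed little and the groups stood well apart.

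FERMT2, or kindlin-2, which helps talin activate integrins, read 90.6, 90.2 and 89.3 TPM with vehicle and 54.1, 52.6 and 54.6 TPM with kava, a ratio of 0.598. The formin DAAM1, an actin nucleator of the planar polarity pathway, was at 17.0 ± 0.449 and 10.3 ± 1.17 TPM (SD, n = 3), a ratio of 0.607. RPS6KA5, the nuclear kinase MSK1, was at 7.63 ± 0.912 and 4.40 ± 0.158 TPM, a ratio of 0.576. None of the 3 showed overlap between groups, although RPS6KA5 and its neighbour DGLUCY share 309 bases on opposite strands and the sources used here do not state strand-specific counting. VIPAS39, a partner of VPS33B in endosomal traffic, stood at a ratio of 0.582. ATG14, the subunit that directs the VPS34 lipid kinase to autophagosome formation, stood at 0.584, with 9.88, 10.1 and 10.2 TPM and then 5.31, 6.41 and 5.87 TPM; it shares 3663 bases with FBXO34 on the other strand. DNAAF2, an assembly factor for axonemal dynein arms, was at 0.597. ACOT2, a mitochondrial acyl-CoA thioesterase, was at 0.613, a value that is uncertain because ACOT1 is a near-identical copy.

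DIO2 was the main exception. It encodes the type 2 deiodinase, which converts thyroxine to the active hormone T3, and read 14.2, 11.7 and 13.2 TPM with vehicle and 33.1, 35.8 and 43.2 TPM with kava, 13.0 ± 1.26 against 37.4 ± 5.26 TPM (SD, n = 3), a ratio of 2.87. All 3 kava values exceeded all vehicle values. BMP4, a secreted ligand of the TGF-β family, read 10.2, 9.24 and 8.74 TPM and then 13.0, 12.3 and 11.0 TPM, a ratio of 1.29, again without overlap. PPP4R4, a regulatory subunit of protein phosphatase 4, was at a ratio of 1.26 and ZFP36L1, which promotes decay of AU-rich mRNAs, at 1.07; the groups did not overlap in either gene. Weakly expressed members with all kava values above included LTBP2, a latent TGF-β binding protein of the matrix, at 2.45 ± 0.160 and 4.80 ± 0.389 TPM, and PGF, a ligand of the VEGF family, at 1.51 ± 0.0201 and 2.07 ± 0.333 TPM. The transcription factor FOXA1, at 0.878 ± 0.110 and 1.29 ± 0.117 TPM, and SYNE3, a nuclear envelope nesprin, at 1.17 ± 0.109 and 1.50 ± 0.211 TPM, did so too. LTBP2, PGF and SYNE3 were chosen for mention after their values were seen.

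The 3 RN7SL members, which encode the RNA of the signal recognition particle, had higher kava means but groups that overlapped. RN7SL2 read 1913, 3424 and 2855 TPM with vehicle and 3244, 1714 and 5543 TPM with kava, and RN7SL1 read 1449, 2689 and 2108 and then 2614, 1274 and 4354 TPM. Kava replicate 2 was lowest and kava replicate 3 highest of the 6 libraries in both. RN7SL3 was lower by far, with means of 3.88 and 8.78 TPM. These copies are near-identical, so reads may be split among them, and the libraries were made with oligo(dT) beads. SUSD6, SNAPC1 and DGLUCY, named as the last of the 10 highest differences, had ratios of 1.07, 1.02 and 1.00, with groups that overlapped.

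**Figure D3:**
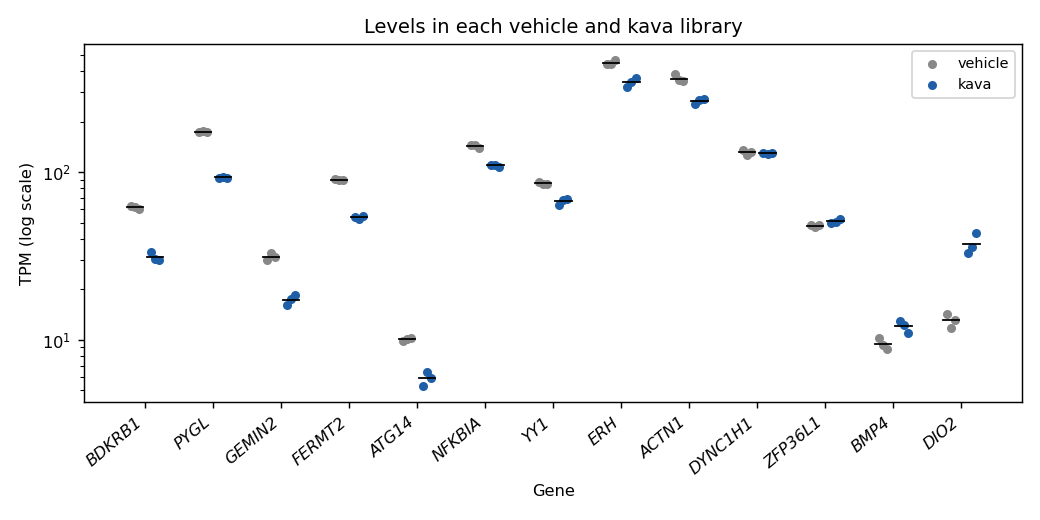
TPM on a log scale (y axis) for the named members (x axis) in each vehicle (grey) and kava (blue) library, with bars at the group means. BDKRB1, PYGL, GEMIN2, FERMT2 and ATG14 separate widely downwards, NFKBIA, YY1, ERH and ACTN1 by about the median proportion, DYNC1H1 overlaps, and ZFP36L1, BMP4 and DIO2 lie above vehicle.

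Grouped by what the genes do, members of all 10 role lists were lower in the main, as were the members as a whole. Counts by role of members lower or higher are without overlap. Of all members, 75.2% were lower and 3.96% higher in this sense, against 24.6% and 22.6% of all genes tested. For transcription and chromatin, 20 of 23 were lower without overlap and 1 higher, with a median of -0.33. YY1, a zinc finger factor that binds many promoters and enhancers, read 87.4, 84.4 and 84.9 TPM with vehicle and 63.7, 68.1 and 68.9 TPM with kava. Its groups were apart by more than their spread. MNAT1, the assembly factor of the CDK-activating kinase within TFIIH, was at a ratio of 0.691, while SNAPC1, a subunit of the complex that starts transcription of small nuclear RNA genes, overlapped. For RNA processing and decay, 18 of 20 were lower and 1 higher, with a median of -0.42. ERH, a small conserved protein tied to mRNA splicing, read 442, 440.1 and 465 TPM and then 322, 344 and 363 TPM. Ratios were 0.694 for SLIRP, which stabilises mitochondrial mRNAs with LRPPRC, and 0.725 for DDX24, a nucleolar helicase. All 5 translation members were lower, with a median of -0.44: EIF2S1, the α subunit of the initiation factor eIF2, was at 0.736, RPL36AL, a ribosomal protein paralog whose reads may be shared with its copies, at 0.787, and SRP54, the GTPase of the signal recognition particle, at 0.714.

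Of 32 kinases, phosphatases and other signalling members, 27 were lower and 2 higher, with a median of -0.41. Beside the counts of this paragraph, 75.2% of all members and 24.6% of all genes tested were lower without overlap. NFKBIA, the inhibitor IκBα that holds NF-κB in the cytoplasm and is itself an NF-κB target, read 146, 146 and 139 TPM with vehicle and 111, 111 and 108 TPM with kava. Every kava value lay below every vehicle value. PPP2R5C, a targeting subunit of protein phosphatase 2A, was at 0.692. All 7 cell cycle and DNA members were lower, with a median of -0.46, including CDKN3, a phosphatase that acts on CDK2, at 0.778 and LRR1, a substrate receptor in replisome unloading, at 0.722. Ubiquitin and protein folding members were lower in 18 of 19 cases, with a median of -0.38. Among them AHSA1, an activator of the HSP90 ATPase, was at 0.793, the immunophilin FKBP3 at 0.745 and the thioredoxin-related TMX1 of the endoplasmic reticulum at 0.761.

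Membrane traffic and autophagy genes were lower in 23 of 27 cases, higher in 0, with a median of -0.33. CNIH1, a cargo receptor for vesicles leaving the endoplasmic reticulum, was at 0.836 and KTN1, the kinesin-binding protein kinectin, at 0.782. Mitochondrial and core metabolism members were lower in 14 of 17 cases, with a median of -0.42; DLST, a subunit of the 2-oxoglutarate dehydrogenase complex, was at 0.687, and COX16, an assembly factor of cytochrome oxidase, at 0.879 with overlap. The list of lipids, glycans, lysosome and transport had the smallest median of the 10, -0.27, with 15 of 21 lower and 6 that overlapped. Here NPC2, the lysosomal cholesterol carrier, was at 0.892, ATP6V1D, a subunit of the proton pump, at 0.864, and the retinol dehydrogenase RDH11 at 0.815. Cytoskeleton, adhesion and matrix members were lower in 17 of 22 cases and higher in 2, with a median of -0.35. ACTN1, the actin crosslinker α-actinin 1, read 384, 352 and 349.5 TPM with vehicle and 256, 269 and 274 TPM with kava. FRMD6, a FERM protein of the Hippo pathway, was at 0.645 and LGALS3, galectin-3, at 0.828. The 85 members in no list had a median of -0.27, with 45 lower, 5 higher and 35 that overlapped. Beside these counts, 75.2% of all members were lower without overlap and 3.96% higher, against 24.6% and 22.6% of all genes tested. Differences between the lists were not tested.

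**Figure D4:**
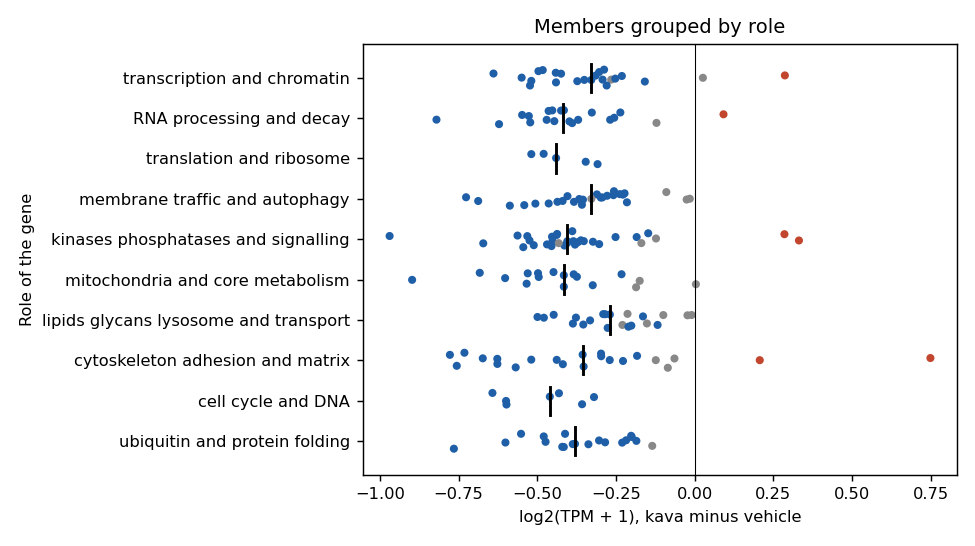
Kava minus vehicle difference in mean log2(TPM + 1) (x axis) for members in the 10 role lists (y axis). Dots are genes, blue where all 3 kava values lie below the vehicle values, red where all lie above and grey where groups overlap; black bars are list medians, which run from -0.27 for lipids, glycans, lysosome and transport to -0.46 for cell cycle and DNA.

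Close to the TPM minimum, the members just inside were PLEKHH1, with means of 0.980 and 1.10 TPM, FOXN3-AS1, with 1.198 and 0.957 TPM, and FOXA1. Just outside were the pseudogene HNRNPCP1, with 0.992 and 0.953 TPM, and the unnamed genes ENSG00000271780, with 0.996 and 0.917 TPM, and ENSG00000234648, listed at 0 in all vehicle libraries and at a kava mean of 1.84 TPM. Of the members, 271 reached 1 TPM in both groups, 3 with vehicle alone and 4 with kava alone. Another expressed gene overlapped 104 members, on the opposite strand for 86. The 174 members that overlapped no such gene had the same median of -0.35. In 134 of them (77.0%) all kava values lay under all vehicle values, against 75.2% of all members and 24.6% of all genes tested.

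The SNRPA1 siRNA libraries were not used to choose the genes, so there the members can be tested. The share of members that differed was close to the background: 257 of the 278 members reached a mean of 1 CPM, and 28 of them (10.9%) differed between SNRPA1 and control siRNA, against 12.2% of all 13772 genes tested (edgeR quasi-likelihood test, Benjamini-Hochberg adjusted p under 0.05). Of these, 15 (5.84%) were higher, beside 4.89% of all genes, and 13 (5.06%) were lower, beside 7.29%. The members' median log2 fold change was 0.019 and that of all genes -0.0032; no test of the difference was made. An unadjusted p under 0.05 was reached by 79 of the 257 members, beside 4237 of all 13772 genes tested. DESeq2 called 33 members higher and 28 lower. For DESeq2 and the left-out libraries below, counts over all genes are not given here, so the member counts have no background beside them. The number of edgeR calls changed when single libraries were left out, for reasons that were not tested. Without control siRNA replicate 1, which stood apart, 41 were higher and 44 lower, and without control siRNA replicate 2, 10 and 7. Without control siRNA replicate 3 or any one of the 3 SNRPA1 siRNA libraries, edgeR called 0 members in either direction, with 25 to 26 higher and 24 to 29 lower at an unadjusted p under 0.05. In control siRNA replicate 1 the median member stood at -0.17 in log2(CPM + 1) relative to the mean of the other controls, against 0.12 and 0.069 for the other 2 measured the same way.

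**Figure D5:**
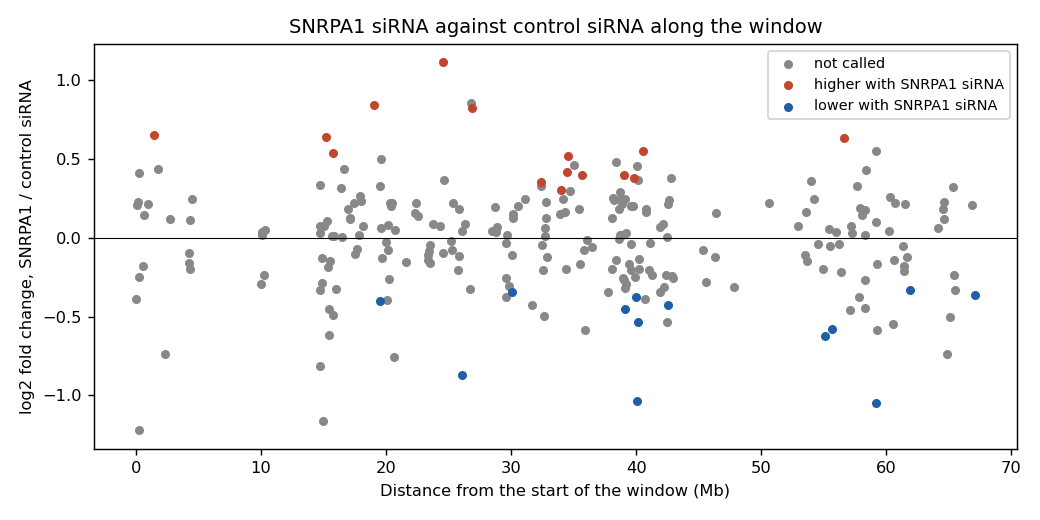
Fitted log2 fold change of SNRPA1 siRNA over control siRNA (y axis) for the 257 tested members against the distance of their start from the window's first member, in Mb (x axis). Red dots are the 15 members higher and blue dots the 13 lower at an edgeR adjusted p under 0.05, grey dots the rest; called genes of either direction lie among uncalled neighbours, and the median is 0.019.

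Among members that rose with SNRPA1 siRNA were both a signalling ligand and parts of the transcription machinery. BMP4 read 10.6, 10.6 and 11.2 CPM with control siRNA and 17.9, 20.8 and 19.5 CPM with SNRPA1 siRNA, 10.8 ± 0.356 against 19.4 ± 1.45 CPM (SD, n = 3), a log2 fold change of 0.84 ± 0.104 (SE; edgeR adjusted p = 0.0101). All SNRPA1 siRNA values exceeded the controls. BMP4 also had the higher kava values described above. SNAPC1 read 28.7, 38.4 and 36.0 CPM and then 70.2, 58.5 and 54.4 CPM, a log2 fold change of 0.83 ± 0.144 (edgeR adjusted p = 0.0193). MED6, a subunit of Mediator, rose by 0.40 ± 0.0823 on the log2 scale, MBIP, a subunit of the ATAC acetyltransferase complex, by 0.65 ± 0.124, and JDP2, a bZIP repressor of AP-1, by 0.55 ± 0.121 (edgeR adjusted p = 0.0279, 0.0226 and 0.0324). With SNAPC1 and ZNF410, a zinc finger activator of CHD4, they made up the 5 of 23 transcription members that rose, and 0 fell. Of all genes tested, 4.89% rose and 7.29% fell. This list is small and was not compared with those shares. ATP6V1D, ACTN1, FCF1 and the orphan receptor GPR135 rose as well. ZNF410, FCF1 and GPR135 lay outside the naming rule and are named after their values were seen.

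ERH read 126, 111 and 107 CPM with control siRNA and 148, 156 and 155 CPM with SNRPA1 siRNA, a log2 fold change of 0.42 ± 0.0843 (edgeR adjusted p = 0.0266). Its neighbour SLC39A9, the zinc transporter ZIP9, which shares 285 bases with it on the opposite strand, rose by 0.52 ± 0.0725 (edgeR adjusted p = 0.0122). SAV1, the Hippo scaffold Salvador, rose by 0.54 ± 0.135, PPP4R3A, a regulatory subunit of protein phosphatase 4, by 0.63 ± 0.143, and VCPKMT, which methylates the VCP ATPase, by 0.64 ± 0.162 (edgeR adjusted p = 0.0443, 0.0340 and 0.0461). Each of these 5 genes had all SNRPA1 siRNA values above all control values, and each was lower with kava. SAV1 shares 1960 bases with ATL1 on the opposite strand, so its reads may be mixed.

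Members that fell with SNRPA1 siRNA included a DNA repair enzyme, a translation factor and enzymes of mitochondria. TDP1, which removes stalled topoisomerase 1 from DNA ends, read 56.7, 52.5 and 51.4 CPM with control siRNA and 33.4, 35.3 and 35.5 CPM with SNRPA1 siRNA, a log2 fold change of -0.62 ± 0.0819 (edgeR adjusted p = 0.0106). EIF2B2, the β subunit of the exchange factor eIF2B, read 44.6, 38.0 and 40.7 CPM and then 28.3, 29.7 and 27.0 CPM, a change of -0.54 ± 0.0963 (edgeR adjusted p = 0.0204). In both genes the groups lay apart. COQ6, a monooxygenase of coenzyme Q synthesis, had a log2 fold change of -0.45 ± 0.109 and shares 5103 bases with ENTPD5 on the other strand; DLST had one of -0.37 ± 0.0767 (edgeR adjusted p = 0.0409 and 0.0281). VIPAS39, one of the members with the lowest ratio with kava, read 23.8, 24.4 and 23.2 CPM and then 16.8, 18.9 and 17.6 CPM, a change of -0.42 ± 0.0955 (edgeR adjusted p = 0.0343).

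SLC38A6, of the family of sodium-coupled amino acid transporters, had a log2 fold change of -0.87 ± 0.125, IFI27L1, a relative of the interferon-induced IFI27, one of -1.05 ± 0.235, and TTC7B, a scaffold of the phosphatidylinositol 4-kinase complex, one of -0.58 ± 0.0999 (edgeR adjusted p = 0.0130, 0.0334 and 0.0189). Of these, IFI27L1 was the least even among controls, with 10.0, 6.05 and 5.93 CPM, control siRNA replicate 1 being highest. CDKN3 changed by -0.40 ± 0.0924 and DYNC1H1 by -0.36 ± 0.0921 (edgeR adjusted p = 0.0372 and 0.0466). DYNC1H1 read 474, 587 and 558 CPM with control siRNA and 426, 428 and 404 CPM with SNRPA1 siRNA, so the groups did not overlap here, whereas they did with kava. RPS6KL1, RAB15 and the nuclear kinase VRK1 fell as well; they lay outside the naming rule and are named after their values were seen. By role, 4 of 27 traffic members, 2 of 7 cell cycle and DNA members and 2 of 17 mitochondrial members fell, with 0 rising in these 3 lists, where 7.29% of all genes fell and 4.89% rose. The lists are small and were not compared with that share.

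Members at the extremes of the kava comparison were mostly not called in the knockdown. BDKRB1 read 23.4, 17.6 and 19.3 CPM with control siRNA and 15.5, 16.7 and 19.9 CPM with SNRPA1 siRNA, which overlapped (log2 fold change -0.21 ± 0.149; edgeR adjusted p = 0.376). PYGL read 158, 183 and 185 and then 146, 138 and 136 CPM, lower in all 3 SNRPA1 siRNA libraries, with a log2 fold change of -0.33 ± 0.0861 that missed the threshold (edgeR adjusted p = 0.0510). For GEMIN2 the change was -0.10 ± 0.110 and for FERMT2 0.24 ± 0.167 (edgeR adjusted p = 0.599 and 0.382). DIO2 was between 1.08 and 1.71 CPM in all siRNA libraries, with a change of -0.077 ± 0.274 (edgeR adjusted p = 0.878). A p that misses the threshold does not show that levels were equal. Among the 207 tested members that were lower with kava, 13 rose and 9 fell with SNRPA1 siRNA. Of 9 that were higher with kava, 1 rose and 0 fell, and of 41 that overlapped, 1 rose and 4 fell. Beside these counts, 4.89% of all genes tested rose and 7.29% fell with SNRPA1 siRNA. A link between the kava and knockdown differences was not tested. Vehicle and siRNA libraries came in separately made tables, so no level was compared between them.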

How the data were processed

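Poly(A)-selected RNA of 12 BEAS-2B libraries was analysed. The authors deposited TPM per gene for the vehicle and kava libraries, and raw counts per gene beside FPKM for the siRNA libraries; the FPKM values, deposited in the same table per the file headers, were not used. Build hg38, DESeq2, StringTie 1.3.4d, HISAT2 2.0.4 and cutadapt 1.9 are listed in the submitters' processing notes with no step given, while the name the authors gave the deposited TPM table mentions salmon; which tool made the TPM, and so how reads of near-identical copies were divided, is not stated; the sources used here do not state strandedness. The genes and lists were chosen with earlier results of these data known.

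The tables were joined by gene identifier, which matched 35185 genes and gave chromosome and start. TPM were tested as log2(TPM + 1) with limma 3.58.1 over 13866 genes of mean TPM at least 1; counts with edgeR 4.0.16 (TMM, quasi-likelihood) over 13772 genes of mean CPM at least 1; both with Benjamini-Hochberg adjustment at 0.05 in R 4.3.3. Both fits recovered most of the changed genes of simulated data. The changes simulated were larger than most of those reported here, and the library spread was set rather than taken from these data. Detection of changes of the size reported here was therefore not tested. Fold changes on the log2(TPM + 1) scale understate differences of low genes. Counting error and library spread were not separated for TPM, whose depth is unknown.

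Named were the 10 lowest and 10 highest kava differences among members of at least 5 TPM, the 3 most expressed of each role list, the 10 largest called rises and falls of the knockdown at 5 CPM or more, and the 3 genes at each edge and beside the TPM minimum; some of these are not reported here. Alternatives were other pseudocounts, minima, scalings, DESeq2 1.42.0, a block and leaving out each library. Replicate numbers did not pair the samples: deviations of same-numbered libraries correlated at -0.016, -0.11 and 0.093 (kava) and -0.38, 0.0015 and -0.19 (siRNA).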

Additional observations from a re-analysis of the deposited data

How the results depend on the processing

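The kava difference of the median member, -0.35 in log2(TPM + 1), was -0.38 with a pseudocount of 0.1, -0.37 for members of at least 5 TPM and -0.15 for 534 window genes with no minimum; leaving out single libraries gave -0.36 to -0.33. Members whose kava values all lay lower numbered 177 to 234 under the alternatives, which differ in the genes and libraries compared. The 177 were among 210 members of at least 5 TPM (84.3%), beside 25.4% of such genes on other chromosomes. With a library left out fewer values are compared, so a lack of overlap is reached more easily for any gene. Members called higher by limma numbered 3 at a minimum of 5 TPM and 2 to 5 when single libraries were left out. For the SNRPA1 siRNA comparison, edgeR with no minimum called 6 members higher and 5 lower, and DESeq2 33 and 28; leaving out single libraries gave 0 to 41 higher, 0 to 44 lower and a median of -0.068 to 0.079. With a replicate block, although the numbers do not pair the samples, edgeR called 0 higher and 0 lower (24 and 22 at an unadjusted p under 0.05), and limma called 173 members lower and 7 higher with kava. The 26 named knockdown calls at 5 CPM or more were followed, which leaves out GPR135 and RPS6KL1, at means of 3.80 and 4.06 CPM. Of the 26 calls, 26 held under DESeq2 and without control siRNA replicate 1, 13 without control siRNA replicate 2 and 9 with no minimum. With the block, or without control siRNA replicate 3 or any SNRPA1 siRNA library, 0 held. A change of sign was seen in 0. The cause was not tested. Adjusted p over these alternatives ran from 2.38e-11 to 0.192. The edgeR and DESeq2 member counts in this section have no matching counts over all genes beside them, so they were not compared with a background. TPM without depth limit what can be said of weakly expressed members.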
